A study of Mus musculus with 21 samples.

Results

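The serine tRNAs with the GCT anticodon form a small family of nuclear tRNAs, and they are described here in the brain of mice with a mutation in Polr3a and in wildtype mice. All count entries whose name starts with Ser-GCT- were taken, which gave 5 isodecoders (Ser-GCT-1-1, Ser-GCT-2-1, Ser-GCT-3-1, Ser-GCT-4 and Ser-GCT-5-1) of 209 tRNAs in the cerebrum table and the same 5 of 208 in the cerebellum table. All 5 passed the filter on low counts in both tissues, and their lowest count in any library was 244, for Ser-GCT-5-1.

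Libraries were made by QuantM-tRNA-seq, a sequencing method for tRNA, from total RNA of flash-frozen tissue of C57BL/6J mice. The Polr3a mutants gave 5 cerebellum and 4 cerebrum libraries, and wildtype mice gave 6 of each. Both genotypes received tamoxifen at postnatal day 28, which set off recombination, and tissue was taken at day 42 from males and females. The series is described as a model of Polr3-related disease. The sources used here do not give the allele, the promoter of the recombinase or the cells it acts in. Nothing in the labels ties each library to an animal of its own, and p-values therefore cover the spread between libraries, which may be technical. A tRNA library holds no messenger RNA, so neither the Polr3a mutation nor the tissue could be checked against its genes.

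Transfer RNAs with the GCT anticodon read the serine codons AGC and AGU, the pair that stands apart from the other serine codons in the genetic code. Serine tRNAs carry a long variable arm, and seryl-tRNA synthetase recognises that arm and the acceptor end rather than the anticodon, so serine tRNAs with different anticodons share 1 charging enzyme. Nuclear tRNA genes are transcribed by RNA polymerase III, whose largest subunit is the Polr3a protein, from promoter elements that lie inside the gene. Isodecoders share an anticodon and differ elsewhere in the sequence. In the names, the first number is the isodecoder and the second the gene copy.

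RefSeq (GRCm38.p6, the assembly also called mm10) lists 8 mouse tRNA genes for serine GCT, n-TSgct1 to n-TSgct8, each 82 bases long. Of these, 4 lie on chromosome 13 (n-TSgct2 at 21492845 to 21492926, n-TSgct8 at 21994190 to 21994271, n-TSgct5 at 22050686 to 22050767 and n-TSgct4 at 23521870 to 23521951). The others lie on chromosome 1 (n-TSgct1), chromosome 2 (n-TSgct7), chromosome 11 (n-TSgct3) and chromosome 19 (n-TSgct6). The tables used here do not say which of these genes each isodecoder name stands for. The gene n-TSgct5 lies inside the single exon of Gm48356, an unclassified GENCODE M21 transcript on the opposite strand, from which its sequence was read. It is shown, with the anticodon at positions 34 to 36 in capitals, as an example of the nuclear family. Its mitochondrial counterpart mt-Ts2, named for the same anticodon, follows. GCT occurs 3 times in mt-Ts2, and the capitals at positions 30 to 32 mark only the one nearest the middle. They should not be read as the anticodon, since the fold was not checked. The GCT flanked by ct and aa, as the anticodon of n-TSgct5 is, lies before them.
n-TSgct5, mm10 chr13:22050686-22050767, minus strand: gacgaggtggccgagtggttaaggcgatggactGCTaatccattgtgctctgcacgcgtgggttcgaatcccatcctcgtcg
mt-Ts2, mm10 chrM:11613-11671, plus strand: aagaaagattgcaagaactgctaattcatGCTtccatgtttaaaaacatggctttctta
The first 7 bases of n-TSgct5 pair with the 7 bases before the last one, which is the acceptor stem. At 59 bases, mt-Ts2 is shorter; it is known for lacking the D arm, and it is transcribed by the mitochondrial RNA polymerase and not by RNA polymerase III.

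Total tRNA counts were 1612754 to 7110313 per cerebellum library and 4353056 to 7588902 per cerebrum library. The cerebellum libraries fell into separate depth classes: mutant 1 and wildtype 1, 2, 3, 4 and 6 held 1612754 to 2272675 counts, and mutants 2, 3, 4 and 5 and wildtype 5 held 4831721 to 7110313. Depth and genotype are therefore almost the same split in cerebellum. Mitochondrial tRNAs, which RNA polymerase III does not make, took 17.2% ± 3.005 of counts in mutant cerebellum (SD, n = 5) and 13.4% ± 0.7002 in wildtype cerebellum (SD, n = 6). They took 14.3% ± 1.19 in mutant cerebrum (SD, n = 4) and 11.2% ± 0.445 in wildtype cerebrum (SD, n = 6). A bacterial glutamine tRNA spike-in made up 0.401% to 1.08% of counts in cerebellum and 0.222% to 0.374% in cerebrum, and was left out of library sizes and tests. The sources used here give neither its amount nor when it was added. Levels are in CPM, counts scaled to a common library size by TMM, which holds the bulk of tRNAs constant between libraries, so a fold change is relative to the rest of the tRNA pool. In such bulk samples, fewer cells of a type and less tRNA per cell cannot be told apart.

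The family was dominated by 1 isodecoder. In wildtype cerebrum Ser-GCT-3-1 held 80.7% ± 0.422 of the Ser-GCT counts (SD, n = 6), Ser-GCT-2-1 held 14.6% ± 0.535 and Ser-GCT-1-1 held 3.25% ± 0.623. Ser-GCT-4 and Ser-GCT-5-1 held 0.795% ± 0.0515 and 0.653% ± 0.158. The order Ser-GCT-3-1, Ser-GCT-2-1, Ser-GCT-1-1 and then the 2 scarce isodecoders held in 21 of 21 libraries. Between the scarce ones, Ser-GCT-4 had the higher count in 3 of 11 cerebellum libraries and in 9 of 10 cerebrum libraries. Their ranges of counts overlapped in all 4 groups. Their shares did not overlap in mutant cerebrum, at 0.696% to 0.753% for Ser-GCT-4 and 0.487% to 0.600% for Ser-GCT-5-1. Isodecoders of 1 anticodon can be near-identical, and the sources used here do not give how ambiguous reads were assigned, so each single count is uncertain to that extent while the sum is less so.

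**Figure D1:**
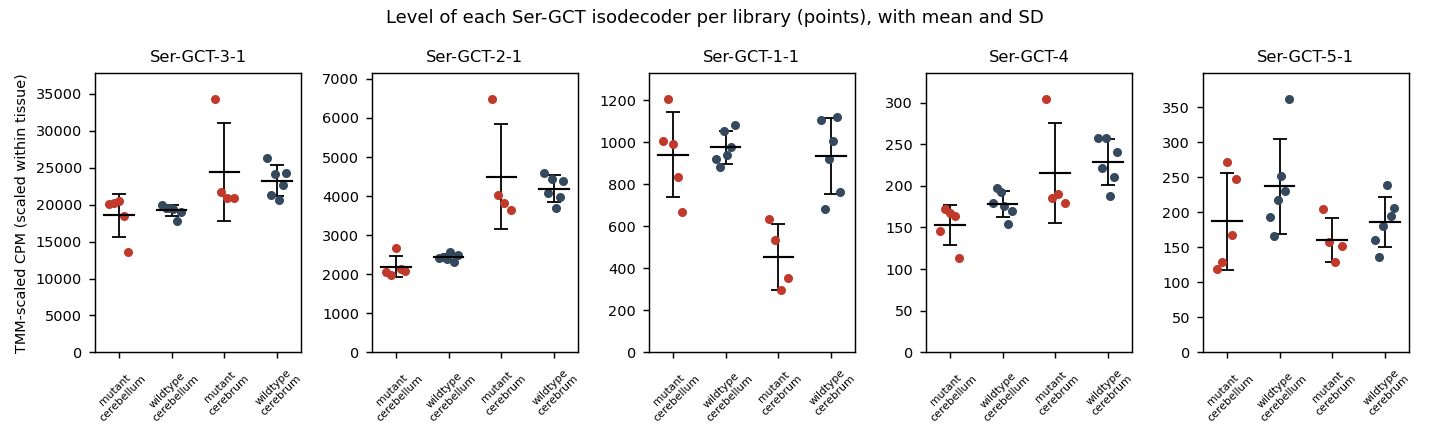
TMM-scaled CPM of each Ser-GCT isodecoder, 1 panel each with its own linear axis from 0; points are libraries (red mutant, dark wildtype), the bar is the mean and the whiskers the SD. CPM were scaled within each tissue, so only the groups of 1 tissue share a scale; Ser-GCT-1-1 in mutant cerebrum lies at 296 to 633 CPM, below all 6 wildtype cerebrum libraries.

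The comparison of genotypes in cerebrum asked which tRNAs the mutation altered, and among the Ser-GCT isodecoders Ser-GCT-1-1 fell to 0.488 of its wildtype level while no other passed the test with TMM scaling. Ser-GCT-1-1 had 633, 536, 296 and 356 CPM in mutant cerebrum 1 to 4, against a lowest value of 681, a median of 962 and a highest value of 1120 CPM in wildtype cerebrum. All 4 mutants lay below all 6 wildtype libraries, and the groups did not overlap. How many of all tRNAs separate the genotypes in this way was not counted. The means were 455 ± 157 CPM (SD, n = 4) in mutants and 933 ± 180 CPM (SD, n = 6) in wildtype, and the log2 fold change was −1.03 ± 0.20 (SE; edgeR adjusted p = 0.000653 by the quasi-likelihood test and the Benjamini-Hochberg method over 208 tRNAs). The Ser-GCT family thus had 1 of 5 isodecoders lower and 0 higher, where over all tRNAs tested 11.5% were lower and 8.17% higher. At an unadjusted p under 0.05 the family count was also 1, where 38 of 208 tRNAs were lower and 29 higher. DESeq2 called the same isodecoder (−0.98, adjusted p = 9.18e-06).

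The fall of Ser-GCT-1-1 in cerebrum stood under every scaling tried. Holding the mitochondrial total constant moved the median of all tRNAs from −0.03 to −0.41, and holding the spike-in constant moved it to −0.36. On those scales Ser-GCT-1-1 lay at −1.44 in both cases (edgeR adjusted p = 4.38e-07 with the mitochondrial total and 6.61e-09 with the spike-in), so it was below the median of the pool by about as much on each. Per spike-in count it stood at 0.156, 0.159, 0.0884 and 0.132 in mutants, against 0.219 to 0.475 in wildtype cerebrum, again without overlap. Leaving out any single library gave −1.19 to −0.88, with edgeR adjusted p between 4.58e-05 and 0.00584.

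Ser-GCT-3-1, which makes up most of the family, had 34355, 21722, 20887 and 20857 CPM in mutant cerebrum 1 to 4, against a lowest value of 20664, a median of 23397 and a highest value of 26268 CPM in wildtype cerebrum. Mutant 1 lay above every wildtype library, while the other 3 mutants lay in the lower part of the wildtype range. Its log2 fold change was 0.07 ± 0.15 (SE, edgeR adjusted p = 0.797), and without mutant 1 it was −0.09 (edgeR adjusted p = 0.575). Ser-GCT-2-1 had 6495, 4035, 3812 and 3637 CPM in mutants, against a lowest value of 3685, a median of 4241 and a highest value of 4580 CPM in wildtype. Here too mutant 1 stood above all wildtype libraries, and mutant 4 just below them. The log2 fold change was 0.10 ± 0.14 (SE, edgeR adjusted p = 0.693) and −0.08 without mutant 1. Neither direction is fixed: with the mitochondrial total held constant Ser-GCT-3-1 was at −0.33 and passed (edgeR adjusted p = 0.0446) and Ser-GCT-2-1 was at −0.30 and did not, and with the spike-in held constant they were at −0.30 and −0.28 and neither passed.

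The scarce isodecoders did not pass with TMM scaling. Ser-GCT-4 had 305, 185, 191 and 180 CPM in mutant cerebrum, against 187 to 257 CPM (median 231) in wildtype, with mutant 1 above and 2 mutants below the wildtype range (log2 fold change −0.09 ± 0.16 SE, edgeR adjusted p = 0.777). Ser-GCT-5-1 had 205, 157, 128 and 151 CPM in mutants, against 136 to 239 CPM (median 188) in wildtype, largely overlapping (−0.21 ± 0.17 SE, edgeR adjusted p = 0.383). With the mitochondrial total held constant both passed, at −0.49 for Ser-GCT-4 and −0.61 for Ser-GCT-5-1, and with the spike-in held constant only Ser-GCT-5-1 did, at −0.60. On those scales 53.4% and 35.6% of all tRNAs were lower in mutant cerebrum and 0% higher.

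Ser-GCT-1-1 is a minor isodecoder, and the family's sum did not pass with TMM scaling. The summed Ser-GCT level was 38721, 26042, 24559 and 25209 CPM in mutant cerebrum, against a lowest value of 26672, a median of 29508 and a highest value of 31928 CPM in wildtype cerebrum. On this scale, whose TMM factors come from the anticodon sums, mutant 1 was above and the other 3 mutants were below the wildtype range. That order depends on the scale. As a share of nuclear counts mutant 3 (3.37%) lay inside the wildtype range of 3.04% to 3.49%. Mutants 2 and 4 (3.02% and 3.01%) lay below it and mutant 1 (4.04%) above it. The log2 fold change of the sum was −0.04 ± 0.13 (SE, edgeR adjusted p = 0.931 over 72 anticodons, of which 2.78% were lower and 8.33% higher), and it was −0.22 (edgeR adjusted p = 0.163) without mutant 1. With the mitochondrial total held constant the sum passed, at −0.35 (edgeR adjusted p = 0.0378), where 26 of 72 anticodons passed.

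Shares within the family do not depend on how libraries are scaled, and they showed the same isodecoder. Ser-GCT-1-1 made up 1.51%, 2.01%, 1.17% and 1.41% of the Ser-GCT counts in mutant cerebrum, against 2.56% to 3.97% (median 3.25%) in wildtype cerebrum, without overlap. The mean share was 1.53% ± 0.355 in mutants (SD, n = 4) and 3.25% ± 0.623 in wildtype (SD, n = 6), a difference of −1.73 percentage points (exact permutation test, two-sided p = 0.00952, which is the smallest of 210 splits; adjusted p = 0.0299 over 179 isodecoder shares). Ser-GCT-3-1 took 81.8%, 81.6%, 82.5% and 82.8% in mutants, against 80.1% to 81.3% (median 80.6%) in wildtype. All 4 mutants were above all wildtype libraries, with means of 82.2% ± 0.594 and 80.7% ± 0.422 and a difference of 1.47 points (same exact permutation p and adjusted p). Shares of the family add up to a fixed whole, so this rise and the fall of the Ser-GCT-1-1 share are not separate results.

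The shares of Ser-GCT-2-1 (15.03% ± 0.428 in mutants and 14.6% ± 0.535 in wildtype, adjusted p = 0.305 by the exact permutation test) and Ser-GCT-5-1 (0.546% ± 0.0571 and 0.653% ± 0.158, adjusted p = 0.258) did not pass. Ser-GCT-4 stood at 0.722% ± 0.0241 in mutants and 0.795% ± 0.0515 in wildtype, with 3 of 4 mutants below the wildtype range (exact permutation p = 0.0381, adjusted p = 0.0812). In all, 1 of 5 shares was lower and 1 higher, where over all isodecoder shares 24.6% were lower and 16.8% higher in mutant cerebrum. Both called shares missed the threshold when any 1 of the 4 mutants was left out (adjusted p = 0.0687 without mutant 1, 0.0584 without mutant 2, 0.0627 without mutant 3 and 0.0748 without mutant 4), where fewer splits are possible and the difference for Ser-GCT-1-1 was −1.89 to −1.61 points.

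**Figure D2:**
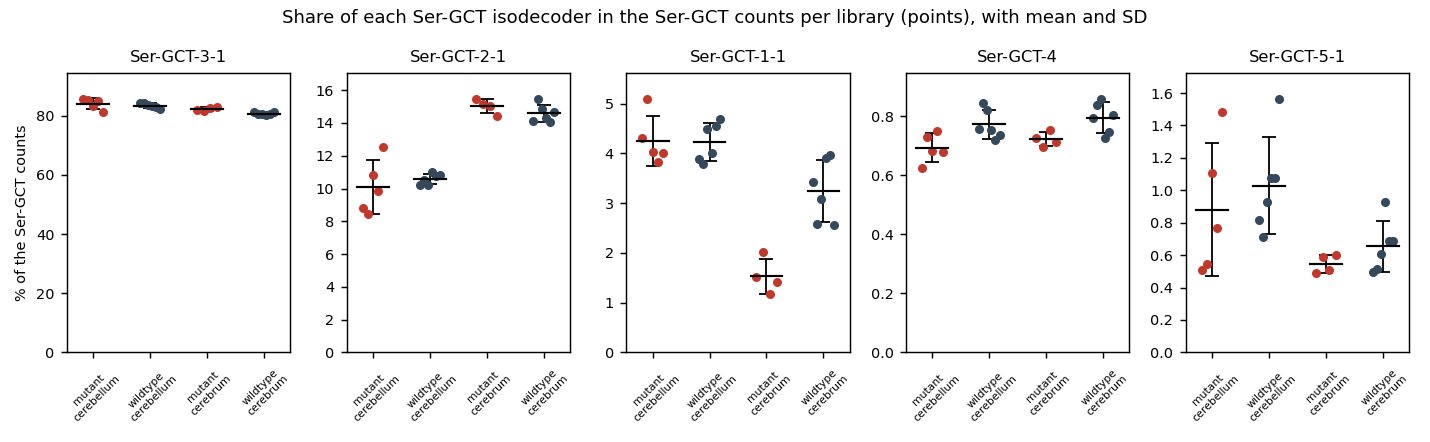
Share of each isodecoder in the Ser-GCT counts of its library, in percent, 1 panel each with its own linear axis from 0; points are libraries (red mutant, dark wildtype), with mean and SD. The Ser-GCT-1-1 panel shows mutant cerebrum at 1.17% to 2.01% and the other groups at 2.56% to 5.10%, and the Ser-GCT-2-1 panel shows the cerebellum libraries at 8.42% to 12.5% below the cerebrum libraries at 14.1% to 15.5%.

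In cerebellum no Ser-GCT isodecoder passed between genotypes with TMM scaling. The count was 0 of 5 by edgeR, where over all tRNAs tested 0.495% were higher and 1.98% lower. It was 0 of 5 at an unadjusted p under 0.05, where 22 of 202 tRNAs were higher and 18 lower. By DESeq2 it was 0 of 5 as well. Ser-GCT-1-1 had 1006, 1208, 992, 833 and 669 CPM in mutant cerebellum 1 to 5, against a lowest value of 881, a median of 957 and a highest value of 1082 CPM in wildtype cerebellum. Mutants lay on both sides, 1 above and 2 below the wildtype range. The means were 941 ± 202 CPM (SD, n = 5) in mutants and 975 ± 78.5 CPM (SD, n = 6) in wildtype (log2 fold change −0.05 ± 0.13 SE, edgeR adjusted p = 0.899).

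Ser-GCT-3-1 had 20072, 20175, 20496, 18494 and 13562 CPM in mutant cerebellum, against 17784 to 19924 CPM (median 19524) in wildtype cerebellum. Mutants 1, 2 and 3 lay above every wildtype library and mutant 5 well below (log2 fold change −0.05 ± 0.11 SE, edgeR adjusted p = 0.899, and 0.07 without mutant 5). Ser-GCT-2-1 had 2064, 1993, 2669, 2142 and 2086 CPM in mutants, against 2305 to 2567 CPM (median 2434) in wildtype. Here 4 of 5 mutants lay below all wildtype libraries and mutant 3 above them (−0.15 ± 0.10 SE, edgeR adjusted p = 0.468).

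Ser-GCT-4 had 146, 173, 167, 163 and 113 CPM in mutant cerebellum, against 154 to 197 CPM (median 177) in wildtype (−0.22 ± 0.14 SE, edgeR adjusted p = 0.408), and 2 mutants lay below the wildtype range. Ser-GCT-5-1 had 119, 129, 272, 167 and 247 CPM in mutants, against 166 to 362 CPM (median 224) in wildtype (−0.34 ± 0.24 SE, edgeR adjusted p = 0.492), the widest spread of the family. The sum was 22398, 23906, 24642, 21681 and 15368 CPM in mutants, against 21715 to 24771 CPM (median 23737) in wildtype. It did not pass (−0.12 ± 0.12 SE, edgeR adjusted p = 0.593 over 71 anticodons, of which 0% were higher and 0% lower, while 10 were higher and 7 lower at an unadjusted p under 0.05).

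The cerebellum calls depended on what was held constant. With the mitochondrial total held constant the median of all tRNAs was −0.37 and 1 of 5 isodecoders passed, Ser-GCT-2-1 at −0.49 (edgeR adjusted p = 0.0478), where 26.2% of all tRNAs were lower and 0% higher. With the spike-in held constant that median was −0.59, and all 5 isodecoders passed, at −0.63 to −0.84, where 41.1% of all tRNAs were lower and 0% higher. Spike-in shares in this tissue spread from 0.401% to 1.08% of counts, and their part in that result was not tested. Within the deeper class Ser-GCT-1-1 was at 669 to 1208 CPM in 4 mutants and at 976 CPM in the single wildtype library, and within the shallower class at 1006 CPM in the single mutant and at 881 to 1082 CPM in 5 wildtype libraries. With depth class as a term in the fit, its log2 fold change was −0.02 (edgeR adjusted p = 0.995).

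Nor did any share within the family pass in cerebellum, where 0% of isodecoder shares passed in either direction by the exact permutation test and 18 were higher and 24 lower at an unadjusted p under 0.05. Ser-GCT-1-1 made up 4.25% ± 0.504 of the family in mutant cerebellum (SD, n = 5) and 4.24% ± 0.383 in wildtype cerebellum (SD, n = 6; adjusted p = 0.985). Ser-GCT-4 had the only family share with an unadjusted p under 0.05, at 0.693% ± 0.0492 in mutants and 0.772% ± 0.0503 in wildtype (exact permutation p = 0.0303, adjusted p = 0.169).

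**Figure D3:**
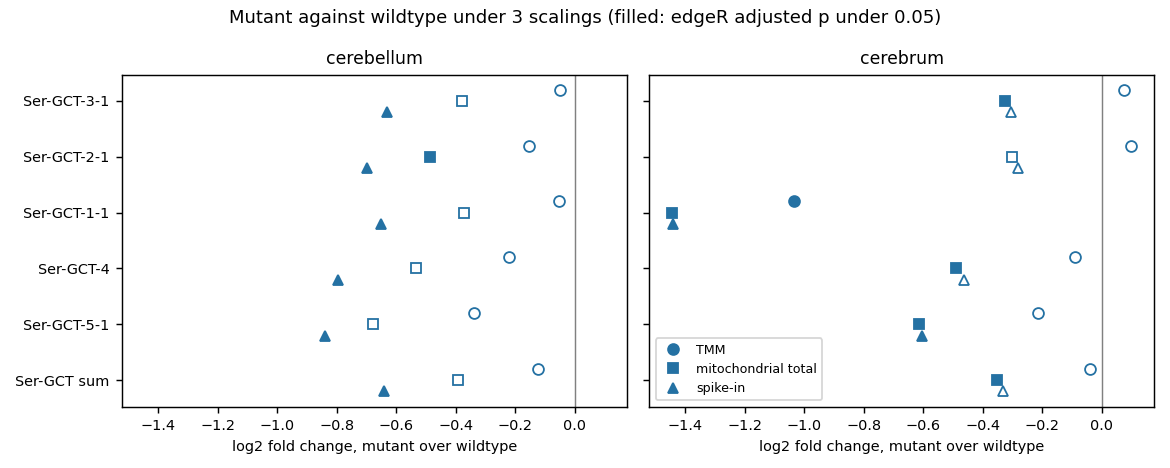
Log2 fold change, mutant over wildtype, of each Ser-GCT isodecoder and of the sum in cerebellum (left) and cerebrum (right) under 3 scalings: TMM (circles), the mitochondrial tRNA total (squares) and the spike-in (triangles); filled symbols passed the edgeR test. Ser-GCT-1-1 in cerebrum is filled under all 3, from −1.44 to −1.03, while all other symbols lie between −0.84 and 0.10.

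The genotype effect on Ser-GCT-1-1 differed between the tissues. In 1 fit of all 21 libraries, the effect in cerebellum minus that in cerebrum was 0.96 ± 0.25 on the log2 scale (SE, edgeR adjusted p = 0.0161 over 204 tRNAs), and 1 of 5 isodecoders passed, where 4.9% of all tRNAs were higher and 0% lower (22 higher and 8 lower at an unadjusted p under 0.05). The estimates for Ser-GCT-2-1, Ser-GCT-3-1, Ser-GCT-4 and Ser-GCT-5-1 were −0.28, −0.15, −0.15 and −0.14 and did not pass. The sum was at −0.07 ± 0.19 (SE, edgeR adjusted p = 0.968 over 72 anticodons, of which 1.39% were higher and 0% lower). The call for Ser-GCT-1-1 was lost without cerebrum mutant 3 (0.78, edgeR adjusted p = 0.0663), without cerebrum mutant 4 (0.86, edgeR adjusted p = 0.0686) and with the spike-in held constant (0.79, edgeR adjusted p = 0.551), and stood without any other single library.

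The tissue comparison was made with CPM scaled jointly over all 21 libraries. In wildtype, 5 cerebellum libraries were in the shallower class and 1 in the deeper, while the cerebrum libraries held 4353056 to 6171896 counts. Depth and tissue are therefore almost the same split in wildtype, and depth class was not a term in this fit. In wildtype mice, 3 of 5 isodecoders were lower in cerebellum and none was higher, where over all tRNAs 37.7% were lower and 33.3% higher. Ser-GCT-2-1 differed most, with a lowest value of 2045, a median of 2195 and a highest value of 2282 CPM in wildtype cerebellum, against 4029, 4528 and 5063 CPM in wildtype cerebrum. Every cerebellum library lay below every cerebrum library. The log2 fold change was −1.08 ± 0.13 (SE, n = 6 each, edgeR adjusted p = 3.83e-08).

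Ser-GCT-3-1 ran from 15940 to 17928 CPM in wildtype cerebellum, against 22591 to 27448 CPM in wildtype cerebrum, without overlap (−0.57 ± 0.13 SE, edgeR adjusted p = 0.000236). Ser-GCT-4 ran from 138 to 178 CPM in wildtype cerebellum, against 205 to 293 CPM in wildtype cerebrum, also without overlap (−0.66 ± 0.15 SE, edgeR adjusted p = 0.000246). How many of all tRNAs separate the tissues in this way was not counted, while 37.7% of them passed as lower and 33.3% as higher. The remaining isodecoders overlapped between the tissues. Ser-GCT-1-1 was at 796 to 970 CPM (median 855) in wildtype cerebellum, against 748 to 1285 CPM (median 1066) in wildtype cerebrum (−0.23 ± 0.16 SE, edgeR adjusted p = 0.202). Ser-GCT-5-1 was at 150.1 to 324 CPM in cerebellum, against 149.6 to 261 CPM in cerebrum (0.05 ± 0.21 SE, edgeR adjusted p = 0.833). With the spike-in held constant all 5 passed as lower in cerebellum, on a scale where the median of all tRNAs was −0.99 and 67.6% of them were lower and 2.94% higher.

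The sum followed its abundant members. It ran from 19920 to 22983 CPM in wildtype cerebellum, against 28004 to 37603 CPM in wildtype cerebrum, with no overlap and a log2 difference of −0.59 ± 0.13 (SE, edgeR adjusted p = 0.000126 over 72 anticodons, of which 38.9% were lower and 36.1% higher). As a share of all nuclear tRNA counts Ser-GCT was 2.69% ± 0.132 in wildtype cerebellum and 3.27% ± 0.182 in wildtype cerebrum (SD, n = 6 each; exact permutation p = 0.00216, adjusted p = 0.00373 over 50 anticodons, of which 30% were lower and 42% higher).

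Most other nuclear serine tRNAs were lower in cerebellum as well, while the share of Ser-GCT within serine was higher there. Of 8 nuclear isodecoders with the AGA, CGA or TGA anticodon, which read the UCN serine codons, 6 were lower and 0 higher in wildtype cerebellum, where over all tRNAs 37.7% were lower and 33.3% higher. Their median log2 fold change was −0.66, against −0.57 for the 5 Ser-GCT isodecoders and −0.05 for all 204 tRNAs. Ser-AGA-1-1 was the lowest of them at −1.41. Those that did not pass were Ser-AGA-2 at −0.29 (edgeR adjusted p = 0.0667) and Ser-AGA-3-1 at −0.13 (edgeR adjusted p = 0.435). Ser-TGA-1-1 (−1.27) and Ser-CGA-2-1 (−1.24) were also among the falls; these and Ser-AGA-2 were named after their values were seen. Ser-GCT made up 37.7% ± 2.11 of nuclear serine tRNA counts in wildtype cerebellum and 28.5% ± 1.85 in wildtype cerebrum (SD, n = 6 each), a difference of 9.22 points (exact permutation p = 0.00216, the smallest possible here; adjusted p = 0.00603 over 39 anticodon shares, of which 35.9% were higher and 25.6% lower). Leucine tRNAs, the other large group with a long variable arm, stood on the other side, with 14 of 16 higher and 2 lower in wildtype cerebellum (median 0.72), beside the same 33.3% higher and 37.7% lower over all tRNAs.

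Within the family the tissues differed in makeup. Ser-GCT-2-1 took 10.6% ± 0.319 of Ser-GCT counts in wildtype cerebellum and 14.6% ± 0.535 in wildtype cerebrum (difference −4.01 points, exact permutation p = 0.00216, adjusted p = 0.0053 over 174 shares). Ser-GCT-3-1 took 83.4% ± 0.785 in cerebellum and 80.7% ± 0.422 in cerebrum (2.67 points, same exact permutation p and adjusted p). For both the tissues did not overlap. Smaller parts of the family passed too. Ser-GCT-1-1 was at 4.24% ± 0.383 in cerebellum and 3.25% ± 0.623 in cerebrum (0.985 points, exact permutation test, adjusted p = 0.0261), and this call was lost, at adjusted p = 0.0502, without cerebellum wildtype 3 or 5 or cerebrum wildtype 3. Ser-GCT-5-1 was at 1.03% ± 0.299 in cerebellum and 0.653% ± 0.158 in cerebrum (0.376 points, adjusted p = 0.0238), and Ser-GCT-4 did not pass (0.772% ± 0.0503 and 0.795% ± 0.0515, adjusted p = 0.526). Of the 5 shares 3 were higher and 1 lower in cerebellum, where over all isodecoder shares 33.3% were higher and 29.9% lower.

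In mutants, which share their libraries with the genotype comparisons, 3 of 5 isodecoders were lower and 1 higher in cerebellum, where over all tRNAs 36.8% were lower and 35.8% higher. Ser-GCT-2-1, Ser-GCT-3-1 and Ser-GCT-4 lay at −1.35, −0.71 and −0.81 (edgeR adjusted p = 1.19e-08, 0.000106 and 0.000133). The isodecoder that was higher was Ser-GCT-1-1, with 928, 1102, 968, 763 and 603 CPM in mutant cerebellum, against 748, 604, 339 and 409.5 CPM in mutant cerebrum. The groups overlapped, since mutant cerebellum 5 lay just below mutant cerebrum 2 and mutant cerebellum 4 just above mutant cerebrum 1. The log2 fold change was 0.73 ± 0.19 (SE, edgeR adjusted p = 0.00126), and it was −0.35 and did not pass with the spike-in held constant, on a scale where the median of all tRNAs was −1.09. Ser-GCT-5-1 was at −0.09 ± 0.24 (SE, edgeR adjusted p = 0.753), and the sum at −0.66 ± 0.15 (SE, edgeR adjusted p = 0.000205, where 43.1% of anticodons were lower and 37.5% higher).

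**Figure D4:**
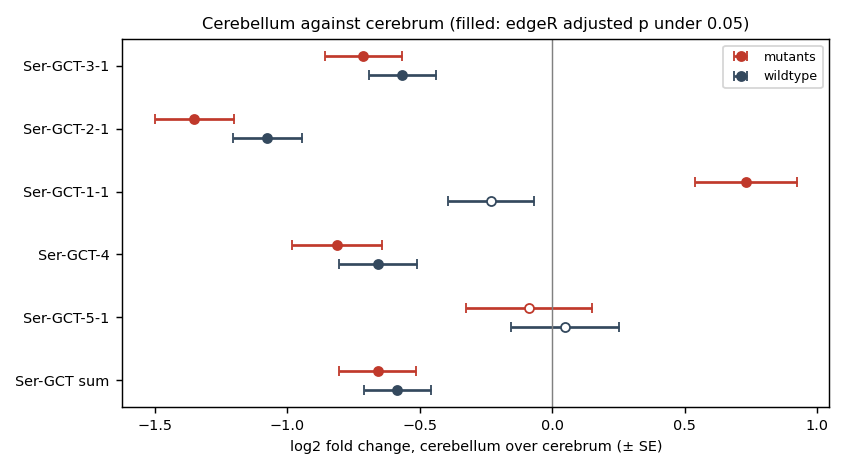
Log2 fold change, cerebellum over cerebrum, of each Ser-GCT isodecoder and of the sum, with SE, in mutants (red, upper point) and wildtype (dark, lower point); filled symbols passed the edgeR test. Ser-GCT-2-1, Ser-GCT-3-1, Ser-GCT-4 and the sum lie between −1.35 and −0.57 in both genotypes, Ser-GCT-5-1 lies near 0, and Ser-GCT-1-1 lies at 0.73 in mutants and −0.23 in wildtype.

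The other nuclear serine tRNAs showed no call between genotypes in cerebrum, where Ser-GCT-1-1 fell. Of 8 with the AGA, CGA or TGA anticodon 0 passed in edgeR, where over all tRNAs tested 11.5% were lower and 8.17% higher. Their median was −0.19, from Ser-AGA-3-1 at −0.34 (edgeR adjusted p = 0.196) to Ser-CGA-3-1 at 0.42 (edgeR adjusted p = 0.0612). Ser-GGA-1-1, a nuclear serine tRNA outside these 8, was at −0.39 and did not pass either (edgeR adjusted p = 0.156). In cerebellum 1 of the 8 rose, Ser-CGA-3-1 at 0.71 (edgeR adjusted p = 0.0145), and 1 fell, Ser-AGA-2 at −0.58 (edgeR adjusted p = 0.0335). Over all tRNAs tested there, 0.495% were higher and 1.98% lower. Ser-GCT was 32.4% ± 4.47 of nuclear serine counts in mutant cerebrum and 28.5% ± 1.85 in wildtype cerebrum (exact permutation p = 0.114, adjusted p = 0.223), and 38.6% ± 2.91 in mutant cerebellum and 37.7% ± 2.11 in wildtype cerebellum (adjusted p = 0.919 by the same test). Over the 39 anticodon shares of this kind 0% passed in either direction in either tissue, with 8 higher and 4 lower in cerebrum and 0 higher and 2 lower in cerebellum at an unadjusted p under 0.05.

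The mitochondrial tRNA with the same anticodon rose in mutant cerebrum relative to the rest of the pool. It was among 15 of 22 mitochondrial tRNAs that passed as higher, where over all tRNAs tested 8.17% were higher and 11.5% lower. Mitochondrial Ser2-GCT (mt-Ts2, shown above) had 5234, 6399, 6003 and 6098 CPM in mutant cerebrum, against 3796 to 4371 CPM (median 4199) in wildtype cerebrum. All 4 mutants were above all 6 wildtype libraries (log2 fold change 0.51 ± 0.10 SE, edgeR adjusted p = 0.00101). In cerebellum it ran from 6185 to 10923 CPM in mutants and from 6065 to 9190 CPM in wildtype, and did not pass (0.25 ± 0.16 SE, edgeR adjusted p = 0.451). The rise rests on the scale: per spike-in count the genotypes overlapped, with 1.29 to 2.26 in mutant cerebrum and 1.34 to 1.99 in wildtype cerebrum, and the cerebellum mean per spike-in count was lower in mutants (0.952 ± 0.355, SD, n = 5) than in wildtype (1.19 ± 0.481, SD, n = 6).

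Across the 21 libraries, with each tissue's mean taken out, Ser-GCT-2-1, Ser-GCT-3-1 and Ser-GCT-4 moved together on the log2 CPM scale. Pearson's r was 0.86 for Ser-GCT-3-1 with Ser-GCT-4, 0.80 for Ser-GCT-2-1 with Ser-GCT-3-1 and 0.76 for Ser-GCT-2-1 with Ser-GCT-4. Ser-GCT-1-1 and Ser-GCT-5-1 followed them less. For Ser-GCT-1-1, r was 0.11 to 0.36 with the other 4 isodecoders, and for Ser-GCT-5-1 it was 0.45 with Ser-GCT-2-1, 0.043 with Ser-GCT-3-1 and 0.083 with Ser-GCT-4. Of 199 tRNAs outside the family, the closest to Ser-GCT-1-1 were Asn-GTT-2-1 (r = 0.84), Arg-ACG-2-1 (0.80) and Ala-AGC-5 (0.80), tRNAs for asparagine, arginine and alanine. Within cerebrum alone these r were 0.91, 0.96 and 0.85, and within cerebellum alone 0.79, 0.24 and 0.55. For the Ser-GCT sum the closest were 2 serine tRNAs, Ser-TGA-2 (0.85) and Ser-AGA-2 (0.70), and then Asn-GTT-2-1 (0.69). These points share libraries, depth and the genotype difference, and the values are a description.

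The authors' deposited tables, which rest on DESeq2 per the submitters' processing notes, list Ser-GCT-1-1 in cerebrum with a log2 fold change of 1.44 and an adjusted p of 2.65e-08. In that table the values run wildtype over mutant, since across 208 tRNAs they correlate with the fit described here at r = −0.9999, so this entry too is lower in mutants. In the same authors' deposited table Ser-GCT-5-1 (0.61, adjusted p = 0.00204) and Ser-GCT-4 (0.49, adjusted p = 0.021) also pass as lower in mutants, and Ser-GCT-3-1 (0.33, adjusted p = 0.0973) and Ser-GCT-2-1 (0.30, adjusted p = 0.141) do not. With the sign turned to mutant over wildtype, the authors' deposited cerebrum values lie below those given here by a median of 0.406, about the shift that the mitochondrial and spike-in scalings gave. On those scales 53.4% and 35.6% of all tRNAs passed as lower in mutant cerebrum and 0% as higher. How many of all tRNAs pass in the authors' deposited cerebrum values was not counted. In the authors' deposited cerebellum table, which runs mutant over wildtype, no Ser-GCT isodecoder passes at an adjusted p of 0.05, and the values run from −0.65 for Ser-GCT-5-1 to −0.32 for Ser-GCT-1-1. Over 202 tRNAs the authors' deposited cerebellum values also lie below those given here, by a median of 0.305.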

How the data were processed

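Small RNA libraries were made by QuantM-tRNA-seq from Trizol-extracted RNA. The tools named, per the submitters' processing notes, are cutadapt, Bowtie2, featureCounts and DESeq2, and the build is mm10. The sources used here do not give versions, settings or the treatment of ambiguous reads. As deposited by the authors, raw counts per tRNA stand in 1 table for each tissue, and the results tables from the authors hold p-values, log2 fold changes, a mean signal (counts divided by size factors) and a statistic (a score). All count columns were matched to samples by name, and 0 were unmatched.

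From the deposited counts, edgeR 4.0.16 (R 4.3.3, limma 3.58.1) was run on all tRNAs and on sums per anticodon, nuclear and mitochondrial apart: TMM, filterByExpr (minimum count 10), quasi-likelihood fits with the robust option, two-sided F tests, Benjamini-Hochberg adjustment and a threshold of 0.05. The spike-in was left out. The SE is the absolute log2 fold change divided by √F. Each tissue was fitted alone for genotypes, and all 21 libraries together, on the 204 tRNAs in both tables, for tissue comparisons. The anticodon table has its own TMM factors, so a summed CPM differs from the sum of its parts, by an amount that varies between libraries. In cerebrum mutant 1 the sum, 38721 CPM, was below Ser-GCT-3-1 (34355 CPM) and Ser-GCT-2-1 (6495 CPM) added together. Log2 CPM for correlations used a prior count of 2. Shares were compared by exact permutation tests (two-sided, doubling the smaller tail), adjusted over all shares of their kind. Whether groups overlap was read for the Ser-GCT isodecoders, their sum and mitochondrial Ser2-GCT only. The share of all tRNAs whose groups separate was not counted. No replicates agreed within sampling noise (lowest chi-square per degree of freedom 44.3). The steps were tested on simulated data.

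All Ser-GCT isodecoders and their sum are named, beside the mitochondrial serine GCT tRNA, the highest and lowest of the other serine tRNAs, and the 3 tRNAs closest in correlation. Members and lists were chosen with earlier results of these data known. Alternatives were scaling by library totals, RLE size factors, the mitochondrial total or the spike-in, DESeq2 1.42.0, a mean count of at least 50 or no filter, a replicate block, sex or depth class as a covariate, other wholes for shares, and leaving out each library. Depth class was used for the cerebellum genotypes only.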

Additional observations from a re-analysis of the deposited data

Results flagged for a closer look

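In groups of 4 to 6 libraries, a level was marked where 1 library stood far from the rest by Dixon's criterion; 44 groups of values were examined and 6 were marked, and chance alone marks about 1 in 20. Cerebrum mutant 1 stood above the other cerebrum mutants in the Ser-GCT sum (38721 CPM), in Ser-GCT-3-1 (34355 CPM), in Ser-GCT-2-1 (6495 CPM) and in Ser-GCT-4 (305 CPM). These 4 values come from 1 library, which was also the deepest, with 7588902 counts. Its Ser-GCT-1-1 level, 633 CPM, was the highest of the cerebrum mutants but was not marked, and its family shares were within those of the other mutants or next to them (81.8% for Ser-GCT-3-1 and 15.5% for Ser-GCT-2-1). Cerebellum mutant 5 stood below the other cerebellum mutants in Ser-GCT-3-1 (13562 CPM), and cerebellum mutant 3 above them in Ser-GCT-2-1 (2669 CPM). The part that depth or RNA quality has in these values was not tested.

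The log2 genotype effect on Ser-GCT-1-1 in cerebellum minus that in cerebrum was 0.96, and the test of this difference passed (edgeR adjusted p = 0.0161).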

How the results depend on the processing

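Fold changes and share differences were scored as unchanged if they kept their direction and their side of the threshold. Counts of calls were scored by closeness to the main count, and shares from summed counts by the size of the shift beside the SD. Under alternatives other than leaving out a library, 89 of 100 values that answer a comparison were unchanged, and with 1 library left out 222 of 234 were. The fall of Ser-GCT-1-1 in cerebrum passed under all of them, at −1.44 to −0.98 with all libraries and at −1.19 to −0.88 with 1 left out. Library totals put Ser-GCT-1-1 at 0.058 between wildtype tissues and Ser-GCT-5-1 at 0.25 between mutant tissues. With the mitochondrial total held constant, 4 isodecoders passed in cerebrum and 1 in cerebellum (all tRNAs: 53.4% and 26.2% lower), the cerebrum sum passed at −0.35, Ser-GCT-2-1 and Ser-GCT-3-1 in cerebrum were at −0.30 and −0.33, and Ser-GCT-5-1 between mutant tissues was at 0.040. With the spike-in held constant, 2 passed in cerebrum, 5 in cerebellum, 5 between wildtype tissues and 0 for the difference of genotype effects (all tRNAs: 35.6%, 41.1% and 67.6% lower, and 0% for the difference). The cerebellum sum then passed at −0.64 (edgeR adjusted p = 0.0467), Ser-GCT-2-1 and Ser-GCT-3-1 in cerebrum were at −0.28 and −0.30, Ser-GCT-5-1 between wildtype tissues at −0.86, and Ser-GCT-1-1 between mutant tissues at −0.35. These scalings shift all tRNAs together. With the mitochondrial total held constant 26 of 72 anticodons passed in cerebrum, and with the spike-in held constant 16 of 71 passed in cerebellum. With depth class as a covariate Ser-GCT-3-1 in cerebellum was at 0.036, and within depth classes the Ser-GCT-1-1 share in cerebellum differed by −0.0917 points. With all nuclear counts as the whole, the Ser-GCT share differed by −0.0514 points between cerebellum genotypes and by −0.584 between wildtype tissues.

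Replicate numbers were not taken to pair the libraries, since the labels do not say that a number marks an animal. The sex label was the same in both tissues for 10 of 10 shared numbers, and whether same-numbered tissues came from 1 animal is not given. Same-numbered genotypes correlated at −0.29 to 0.56 in cerebrum and 0.02 to 0.21 in cerebellum, and tissues at −0.18 to 0.26 in mutants and −0.02 to 0.45 in wildtype, with 1 of 4, 0 of 5, 1 of 4 and 4 of 6 numbers matching best with their own. With a replicate block the difference of genotype effects on the sum was 0.066, Ser-GCT-1-1 in cerebrum was at −1.07, and no call on a Ser-GCT isodecoder or the sum changed, between tissues included; over all tRNAs 65 passed in cerebrum, against 41 without the block, and 28 for the difference of genotype effects, against 10.

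With 1 library left out, the sum ranged from −0.22 to 0.029 in cerebrum and from −0.14 to 0.12 for the difference of genotype effects, where 0 to 1 isodecoders passed. Called shares in cerebrum numbered 0 to 2. The Ser-GCT share of nuclear serine differed by −0.184 to 1.79 points in cerebellum. Ser-GCT-1-1 in cerebellum ranged from −0.16 to 0.072 and its share difference from −0.195 to 0.125 points. In cerebrum Ser-GCT-2-1 ranged from −0.083 to 0.19 and Ser-GCT-3-1 from −0.085 to 0.14; in cerebellum Ser-GCT-3-1 ranged from −0.088 to 0.065. For the difference of genotype effects Ser-GCT-3-1 ranged from −0.24 to 0.053, Ser-GCT-4 from −0.23 to 0.056 and Ser-GCT-5-1 from −0.34 to 0.028. Between tissues Ser-GCT-5-1 ranged from −0.29 to 0.044 in mutants and from −0.12 to 0.13 in wildtype. The cerebellum libraries of unlike depth, and 4 to 6 libraries a group, limit what could be detected. The cause of these changes was not tested.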

Other observations

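In the authors' deposited anticodon table for cerebrum, the mean level listed for Ser-TGA is 157802, while the deposited means of its own isodecoders add up to 243117. The listed value equals the sum of the Ser-GCT isodecoder means (157496) and the Ser-GGA mean (306), and the log2 fold change listed for Ser-TGA, −0.35, equals that listed for Ser-GCT to 2 decimals in the authors' deposited table. In the authors' deposited cerebellum table Ser-TGA is listed at 77058, the sum of its own isodecoders, and Ser-GCT is listed at the sum of its own isodecoders in both tissues (73944 in cerebellum and 157496 in cerebrum).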
